A study of Mus musculus with 12 samples.

Results

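The 10 genes described here belong to the bone morphogenetic protein (BMP) pathway and were selected by gene symbol from a table of 54547 genes measured by RNA sequencing of cells sorted from mouse brain. They are the ligand genes Bmp2, Bmp4 and Bmp7, the antagonist genes Chrdl1, Nog and Grem1, the receptor gene Bmpr1a and the target genes Id1, Id2 and Id3. All 10 were present in the table under these symbols. Chrdl1 was chosen because it stood among the genes with the largest rise in RasV12 GFP+ cells, and the others were added with results of these libraries known. Values of the 10 genes in that comparison are therefore given as a description, without a test.

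The study compared 4 groups of 3 libraries, all from mice of a mixed 129 and C57BL/6 background with the Msi1-CreER allele, through which the Musashi-1 gene, active in stem and progenitor cells of the brain, drives a Cre that can be switched on. RasV12 GFP+ and RasV12 CD11b+ libraries came from brain tumors of Msi1-CreER;RasV12 mice, in which RasV12 is an oncogenic form of Ras. Control GFP+ and Control CD11b+ libraries came from the cerebellum of Msi1-CreER;GFP mice, so the tissue differs together with the genotype and the 2 cannot be told apart. CD11b+ cells are phagocytes, that is microglia, macrophages and related myeloid cells. The sources used here give no age, induction schedule, cell number or pooling of animals. Nothing states that the 3 replicates of a group were different mice, and p-values therefore rest on the spread among libraries, some of which may be technical.

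BMPs are secreted ligands of the TGF-beta superfamily. They bind type I and type II receptor kinases, which phosphorylate Smad1, Smad5 and Smad9, and these enter the nucleus with Smad4 and switch on target genes, the Id genes foremost. Secreted antagonists such as noggin, gremlin and the chordin-like proteins bind the ligands outside the cell and keep them from the receptors. In the brain the pathway is known for steering neural stem cells towards astrocytes and for patterning the dorsal midline, where choroid plexus and meninges are also sources of ligand.

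The Id genes are textbook BMP targets, and the stretches before their start sites are shown because the readout of the pathway turns on them. RefSeq promoter sequences of build GRCm38.p6 were matched by symbol for 5 of the 10 genes (Id2, Id3, Bmp4, Grem1 and Bmpr1a), and the 250 bases before the RefSeq start site of Id2 and Id3 are printed 5′ to 3′ in the direction of the gene. Capitals mark GGCGCC, a GC-rich element of Smad1 and Smad5 binding sites, and CAGAC, which holds the core of the Smad4 element, each searched on both strands, and the matches do not overlap here.
Id2 (chr12:25096093-25096342, minus strand): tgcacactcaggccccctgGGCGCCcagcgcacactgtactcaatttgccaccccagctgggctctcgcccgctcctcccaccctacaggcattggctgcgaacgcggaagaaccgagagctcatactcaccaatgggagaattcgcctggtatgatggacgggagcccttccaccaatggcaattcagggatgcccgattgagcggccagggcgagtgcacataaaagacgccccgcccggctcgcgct
Id3 (chr4:136143572-136143821, plus strand): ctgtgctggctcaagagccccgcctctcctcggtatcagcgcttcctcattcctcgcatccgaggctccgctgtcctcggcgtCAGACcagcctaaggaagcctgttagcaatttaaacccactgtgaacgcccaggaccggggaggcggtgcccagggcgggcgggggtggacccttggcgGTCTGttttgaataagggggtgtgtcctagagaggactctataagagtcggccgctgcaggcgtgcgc

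Id2 held 1 match to GGCGCC, 231 bases before the start site, and none to CAGAC. Id3 held 2 matches to CAGAC, at 167 and 68 bases before the start site, the second on the opposite strand, and none to GGCGCC. Of 32851 RefSeq promoters of the same length, 9.59% held GGCGCC and 42.2% held CAGAC, so either match is common. Bmp4 held neither, Bmpr1a held 1 match to GGCGCC, and Grem1 held 1 match to each. GENCODE gene models of Id2 and Id3 begin upstream of the RefSeq start and cover the printed stretches.

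Libraries held 18519240 to 34432725 recovered reads in the GFP+ groups and 7883870 to 34601205 in Control CD11b+, but 3642570, 2951629 and 23589310 in RasV12 CD11b+ 1, 2 and 3. Itgam, which encodes CD11b, averaged 5117 ± 126 normalized counts (SD, n = 3) in Control CD11b+ and 1936 ± 1009 in RasV12 CD11b+, and 0.0 and 0.2 ± 0.3 in Control and RasV12 GFP+. As a measure of background, 1766 olfactory and vomeronasal receptor genes, which neither sorted population is known to use, were summed per kilobase of exon. They came to 0.838 to 1.96 normalized counts per kb in Control GFP+ and 1.86 to 3.43 in RasV12 GFP+. In CD11b+ cells they came to 4.66, 38.1 and 4.83 in Control CD11b+ 1, 2 and 3 and to 59.8 to 91.5 in RasV12 CD11b+ libraries. Low values in Control CD11b+ 2 and in the RasV12 CD11b+ libraries are read against that level, as the plot of counts over the receptor genes shows. Values below are normalized counts per library, and log2 fold changes ± SE are on the log2(normalized count + 1) scale.

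In RasV12 GFP+ cells the antagonist Chrdl1 and the ligands Bmp2 and Bmp7 stood between 884 and 4201 normalized counts, against 577 or less in Control GFP+ cells, while the ligand Bmp4 was lower. The antagonist Grem1 was higher too, at a far lower level. Id1 and Id3 were moderately higher in all 3 tumor libraries, and Id2, Bmpr1a and Nog overlapped between the groups. Libraries of the groups did not overlap for 6 of the 10 genes in the higher direction and for 1 in the lower. Over all 29835 genes tested the same held for 17.2% and 10.9%. Since the genes were picked with this comparison known, nothing is read from these counts. In bulk samples fewer cells of a type and less RNA per cell cannot be told apart, which holds for every level here.

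**Figure D1:**
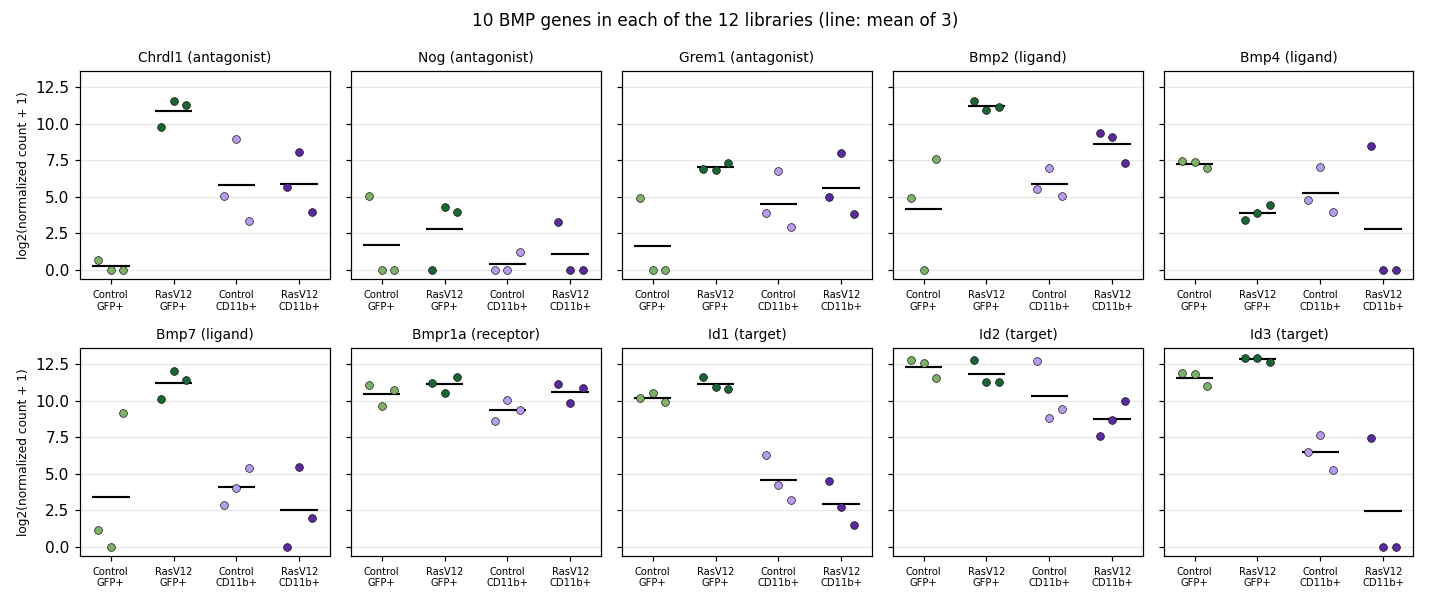
Log2(normalized count + 1) of the 10 genes in each of the 12 libraries, with 1 point per library, replicates 1 to 3 from left to right and a line at the mean of 3. Chrdl1, Bmp2, Bmp7, Grem1, Id1 and Id3 are higher in all RasV12 GFP+ than in all Control GFP+ libraries, Bmp4 is lower, and Id1 and Id3 are low in all CD11b+ libraries.

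Among the antagonists, Chrdl1 (chromosome X, 143285674 to 143394262, minus strand, GRCm38) encodes chordin-like 1, a secreted protein with chordin-type cysteine-rich repeats that binds BMPs. It stood at 884, 3046 and 2484 normalized counts in RasV12 GFP+ 1, 2 and 3, from 1957, 5314 and 6944 reads. In Control GFP+ it stood at 0.6, 0.0 and 0.0, from 1 read in all. All tumor libraries lay far above all control libraries, and replicate 1 was the lowest of the tumor libraries. The ratio between the groups was 8236, with a 95% counting interval of 1478 to 325300 from an exact binomial test, which covers counting error only. The log2 fold change was 10.65 ± 1.43, ranged from 7.39 to 12.9 over the alternatives, and depends on the pseudocount, as it must for a group with 1 read.

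Grem1 (chromosome 2, 113746164 to 113758646, minus strand) encodes gremlin, a secreted antagonist of BMP2, BMP4 and BMP7 of the cysteine-knot family. It stood at 121.0, 114 and 162 in RasV12 GFP+ and at 29.1, 0.0 and 0.0 in Control GFP+, a log2 fold change of 5.40 ± 1.58. The tumor libraries agreed closely with each other, and the control reads came from replicate 1 alone. The log2 fold change of Grem1 was 7.04 without Control GFP+ 1 and 4.58 without Control GFP+ 2 or 3. Nog (chromosome 11, 89300638 to 89302332, minus strand) encodes noggin, which blocks receptor contact of the ligands. It stood at 0.0, 18.9 and 14.7 in RasV12 and 32.1, 0.0 and 0.0 in Control GFP+, so the groups overlapped and both were near the limit of detection.

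Among the ligands, Bmp2 (chromosome 2, 133552159 to 133562885, plus strand) stood at 3095, 2015 and 2247 in RasV12 GFP+ and at 29.1, 0.0 and 196 in Control GFP+, a log2 fold change of 7.06 ± 1.46. Bmp7 (chromosome 2, 172868012 to 172940321, minus strand) stood at 1113, 4201 and 2830 in RasV12 GFP+ and at 1.2, 0.0 and 577 in Control GFP+, a log2 fold change of 7.77 ± 2.06. Both ligands were higher in every tumor library than in any control library, and in both the control reads came mainly from Control GFP+ 3. Without that library the log2 fold changes were 8.78 for Bmp2 and 10.64 for Bmp7. In Control GFP+ 3 the summed level of 8 fibroblast and pericyte markers was 7922, against 4017 and 5542 in replicates 1 and 2, and that of 8 choroid plexus markers was 37268, against 130915 and 79979. Their part in the Bmp2 and Bmp7 reads of that library was not tested.

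Bmp4 (chromosome 14, 46383520 to 46390669, minus strand), a ligand close to BMP2 in sequence, went the other way. It stood at 177, 167 and 126 in Control GFP+ and at 9.5, 13.8 and 21.1 in RasV12 GFP+, a log2 fold change of -3.37 ± 1.86. All control libraries lay above all tumor libraries, with a narrow spread in each group. The large standard error comes from the model, which shares 1 spread over the 4 groups, and Bmp4 had 352 in RasV12 CD11b+ 1 and 0.0 in RasV12 CD11b+ 2 and 3. Per length, Bmp4 was the most abundant of the 3 ligands in Control GFP+, at 4.20 ± 0.70 FPKM (SD, n = 3), against 1.27 ± 1.78 for Bmp2 and 2.87 ± 4.97 for Bmp7, though the libraries of Bmp7 spanned those of Bmp4. In RasV12 GFP+ it was the least abundant, at 0.433 ± 0.153 FPKM against 41.4 ± 9.58 for Bmp2 and 40.5 ± 23.1 for Bmp7. The predicted genes Gm15217 and Gm15222 overlap Bmp4, and without strand information their reads cannot be told apart from those of Bmp4.

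The receptor gene Bmpr1a (chromosome 14, 34410734 to 34503341, minus strand) encodes the type I receptor kinase ALK3. It stood at 2369, 1456 and 3251 in RasV12 GFP+ and at 2142, 793 and 1759 in Control GFP+. The groups overlapped, and the log2 fold change of 0.64 ± 0.55 was close to 0.56, the median of all genes tested in this comparison.

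The Id genes encode helix-loop-helix proteins without a DNA-binding region, which hold back differentiation factors by pairing with their partners. Id3 (chromosome 4, 136143497 to 136145755, plus strand) stood at 8013, 7905 and 6661 in RasV12 GFP+ and at 3878, 3634 and 2077 in Control GFP+. Id1 (chromosome 2, 152736251 to 152737410, plus strand) stood at 3142, 2007 and 1784 in RasV12 and 1190, 1473 and 994 in Control GFP+. For both genes every tumor library was above every control library. The log2 fold changes were 1.28 ± 1.51 for Id3 and 0.90 ± 0.98 for Id1, each smaller than its standard error. The median of all genes was 0.56. As for Bmp4, these standard errors share 1 spread over the 4 groups, the low CD11b+ libraries included. They do not measure the spread among GFP+ libraries alone. Id2 (chromosome 12, 25093799 to 25097140, minus strand) stood at 7275, 2570 and 2558 in RasV12 and 7212, 6227 and 3060 in Control GFP+, with overlap and a log2 fold change of -0.51 ± 0.89.

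The 10 genes kept the sign of their log2 fold change under all alternatives that gave a value. Quantile normalization was among them and moved the median of all genes to -0.12. For Nog the ratio of summed reads went the other way, at 1.26-fold lower (counting interval 0.87 to 1.81), so its direction is not settled. All these fits used the libraries with which the genes were chosen. Among the RasV12 GFP+ libraries the order of levels per length was led by Id3 at 252 ± 25.2 FPKM, above Id1 at 120 ± 37.7 and Id2 at 102 ± 66.9, which overlapped each other. Bmp2 and Bmp7 followed and overlapped, then Bmpr1a at 22.3 ± 8.50 and Chrdl1 at 18.9 ± 9.96, which overlapped each other and the lowest Bmp7 library. Grem1 at 1.90 ± 0.36 lay below these without overlap, and Bmp4 and Nog, at 0.433 ± 0.153 and 0.400 ± 0.361, overlapped at the bottom. In Control GFP+ the order was Id2 at 135 ± 53.4, Id3 at 107 ± 32.7 and Id1 at 63.0 ± 12.5 FPKM, of which Id1 overlapped with both others only in part of its range, then Bmpr1a at 14.8 ± 6.55. The 3 ligands came next, and Grem1 at 0.133 ± 0.231 and Chrdl1, listed at 0 in FPKM, came last of the genes placed. Nog, with 54 reads in Control GFP+, was not placed in this order.

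Markers of other cell types moved between the same groups. The summed level of 8 astrocyte and Bergmann glia markers was 278573 to 292762 in Control and 40065 to 101815 in RasV12 GFP+, and that of 8 choroid plexus markers 37268 to 130915 and 718 to 2787. For 8 endothelial markers it was 11777 to 18340 and 1727 to 2634. For oligodendrocyte markers it was 882063 to 1424010 in Control and 2699 to 15556 in RasV12 GFP+, and for neuron markers 54156 to 79663 and 1544 to 2363. Mitochondrial genes took 20.1 to 30.4% of reads in Control and 1.53 to 2.62% in RasV12 GFP+. Fibroblast and pericyte markers overlapped, at 4017 to 7922 and 3698 to 6749, and neural stem and progenitor markers were higher, at 15197 to 17307 and 28320 to 32230. The part of these markers and of the mitochondrial share in the levels of the BMP genes was not tested. The 8 myeloid markers summed to at most 568 in any GFP+ library, against at least 39398 in any CD11b+ library.

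In CD11b+ cells none of the 10 genes passed the test between tumor and control, against 5.36% of all genes. By limma-trend 2 had an unadjusted p under 0.05, as did 7908 of the 29835 genes tested, and neither edgeR nor DESeq2 on recovered reads called any. Bmp2 was the only member whose libraries did not overlap, at 673, 559 and 157 in RasV12 and 45.5, 124 and 32.6 in Control CD11b+, whereas 19.0% of all genes were higher and 8.59% lower without overlap. Its log2 fold change was 2.75 ± 1.46 (adjusted p = 0.239, and 0.0783 to 0.715 over the alternatives). Per kb, Bmp2 was 2.39, 1.72 and 0.739 times the receptor genes of the same libraries in RasV12 CD11b+, so this level was near the background.

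Markers and the mitochondrial share differed between the CD11b+ groups as well. The 8 myeloid markers, all with reads in every CD11b+ library, summed to 123423 to 393812 in Control and 39398 to 61048 in RasV12 CD11b+. Csf1r, P2ry12 and Cx3cr1 fell most, from means of 122158, 59607 and 53534 to 16348, 5451 and 5885. Aif1 averaged higher, at 2302 in Control and 3042 in RasV12, and Ptprc overlapped, at 5868 to 9032 and 5256 to 8789. Endothelial markers summed to 644 to 1700 in Control and 4314 to 5771 in RasV12 CD11b+, and neuron markers to 1100 to 3652 and 4280 to 7990. Among the endothelial markers Cldn5 (means 175 and 148) and Ly6c1 (167 and 144) averaged lower and the others higher. Among the neuron markers Syt1 rose most, from 482 to 3220, and Snap25 moved little, from 577 to 661. Marker sums were not set against the receptor genes, at 4.66 to 38.1 per kb in Control and 59.8 to 91.5 in RasV12 CD11b+. Fibroblast and pericyte markers, at 215 to 2260 and 2259 to 3738, overlapped only at 1 end. Mitochondrial genes took 0.630 to 2.54% of reads in Control and 13.3 to 17.7% in RasV12 CD11b+. Their part in the results in CD11b+ cells was not tested.

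Chrdl1 stood at 49.0, 266 and 14.4 in RasV12 and 32.1, 494 and 9.1 in Control CD11b+, and the groups overlapped over their whole range. The log2 fold change was 0.10 ± 1.43 (adjusted p = 0.972). Its sign turned under 11 of 25 alternatives, which are listed with the processing. Per kb it reached at most 1.92 times the receptor genes in any CD11b+ library, against 38.1 to 198 times in RasV12 GFP+. Grem1 differed by 1.09 ± 1.58 (adjusted p = 0.683) on the log2 scale and was below the receptor genes per kb in every CD11b+ library. Nog differed by 0.70 ± 1.62 (adjusted p = 0.806), from 2 reads in RasV12 and 3 in Control CD11b+. It passed the filter on low values only through GFP+ libraries. With so few reads the test cannot decide whether Nog differs in phagocytes.

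**Figure D2:**
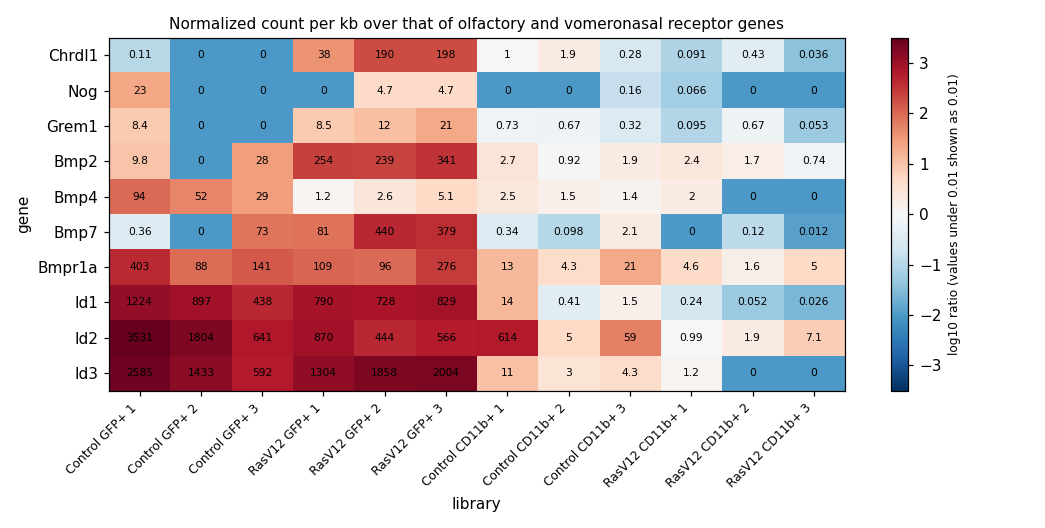
Normalized count per kb of exon of each of the 10 genes, divided by that of olfactory and vomeronasal receptor genes in the same library (number in each cell; colour on a log10 scale, red above and blue below the receptor genes). Chrdl1, Bmp2, Bmp7 and the Id genes are far above the receptor genes in RasV12 GFP+ libraries, and in RasV12 CD11b+ libraries only Bmpr1a is above them in all 3 by more than 1.5 times.

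Bmpr1a was the only member above the receptor genes per kb in every CD11b+ library, while Id2 was at 0.991 times them in RasV12 CD11b+ 1 and above them in the other 5. Bmpr1a stood at 2326, 919 and 1912 in RasV12 and at 396, 1046 and 658 in Control CD11b+, which overlapped. The log2 fold change of 1.30 ± 0.55 did not pass (adjusted p = 0.156), and the median of all genes in this comparison was 0.74. Per kb Bmpr1a was 1.58 to 5.03 times the receptor genes in RasV12 and 4.33 to 21.5 times in Control CD11b+.

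Id2, the Id gene known for its role in innate lymphoid and dendritic cells, was per kb the most abundant Id gene in 5 of the 6 CD11b+ libraries, the exception being RasV12 CD11b+ 1, where Id3 was higher. It stood at 6981, 464 and 692 in Control and at 192, 421 and 1039 in RasV12 CD11b+, a log2 fold change of -1.58 ± 0.89 (adjusted p = 0.268). Control CD11b+ 1 stood apart from the other 5 libraries, which ranged from 192 to 1039. Without it the log2 fold change of Id2 was -0.37, without Control CD11b+ 2 it was -2.33, and without RasV12 CD11b+ 1 it was -0.98. Id3 stood at 88.6, 202 and 36.9 in Control and at 174, 0.0 and 0.0 in RasV12 CD11b+, from 39, 0 and 0 reads. Its log2 fold change was -3.98 ± 1.51 (adjusted p = 0.124, and 0.002 to 0.694 over the alternatives). It passed without RasV12 CD11b+ 1 (-6.47, adjusted p = 0.002), without RasV12 CD11b+ 1 and 2 (adjusted p = 0.00394) and after quantile normalization (adjusted p = 0.0318). Id1 stood at 77.6, 18 and 8.2 in Control and at 22.3, 5.5 and 1.8 in RasV12 CD11b+ (-1.67 ± 0.98, adjusted p = 0.282), and per kb it was at most 0.242 times the receptor genes in the tumor libraries.

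Of the ligands, Bmp4 stood at 25.9, 129 and 14.8 in Control and 352, 0.0 and 0.0 in RasV12 CD11b+ (-2.43 ± 1.86, adjusted p = 0.411, and 0.0423 to 0.947 over the alternatives). The tumor reads of Bmp4 all came from RasV12 CD11b+ 1, and without that library it passed (-5.25, adjusted p = 0.0423). Bmp7 had 13 reads in RasV12 CD11b+ and 112 in Control CD11b+ in all (-1.58 ± 2.06, adjusted p = 0.643). Without RasV12 CD11b+ 1 the test thus called 2 of the 10 genes, Id3 and Bmp4, both lower in the tumor, against 2.99% of all genes in that fit (2.02% lower). With all libraries none was called, and RasV12 CD11b+ 2, which stayed in that fit, is of low depth, so no excess is read. In Control CD11b+, Bmp4 was 1.36 to 2.47, Bmp7 0.098 to 2.1 and Id3 2.96 to 10.6 times the receptor genes per kb.

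Between the sorted populations, Id1 and Id3 were lower in phagocytes than in GFP+ cells, without overlap, in the tumor and in the control. In Control they averaged 1219 ± 241 and 3196 ± 977 in GFP+ and 34.6 ± 37.6 and 109 ± 84.5 in CD11b+ libraries (SD, n = 3). In the tumor they averaged 2311 ± 728 and 7526 ± 751 in GFP+ and 9.87 ± 10.9 and 57.9 ± 100.3 in CD11b+ libraries. In tumors 6 of the 10 genes were lower in CD11b+ cells without overlap, namely Bmp2, Bmp7, Chrdl1, Id1, Id2 and Id3, against 14.8% of all genes, and none was higher, against 36.0%. In the control Id1 and Id3 were lower and Chrdl1 was higher without overlap, against 12.7% and 32.9% of all genes. These comparisons share GFP+ libraries with the comparison that chose the genes and carry no test for them.

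The genes whose values over the 12 libraries were most like those of Chrdl1 were Ptgs2 (Pearson r = 0.953), Angpt2 (r = 0.948), Nr1h4 (r = 0.946), Hmga2 (r = 0.943) and Plau (r = 0.935), among 15349 candidates with a standard symbol and a mean of at least 100 in a group. In all, 18 candidates were above 0.9. The likeness rests on the contrast between RasV12 and Control GFP+, since these genes averaged 202 to 4468 in RasV12 and at most 2.83 in Control GFP+. It is given as a description with no test, over libraries that fall into 4 groups.

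Other genes of the pathway, taken from a list of 55 ligands, antagonists, chordin-family proteases, receptors, Smads and targets that holds none of the 10, were tested in the same fits. All 55 were in the table, and 45 passed the filter on low values. In RasV12 GFP+ cells 6 rose and 2 fell, which is 17.8% of those tested, against 6.79% of all genes (4.14% higher and 2.65% lower). The list was drawn up with earlier results of these data known, so no excess is read from its counts here or below. The median log2 fold change was 0.94 over the list and 0.56 over all genes. The ligand gene Gdf6 and the antagonist genes Bmper and Fstl1 rose, as did the protease genes Bmp1 and Tll2 and the transducer gene Smad5, while the receptor gene Acvrl1 and the target gene Msx1 fell. By limma-trend with Benjamini-Hochberg adjustment the count was 4, 4, 5, 3 and 3 in place of 8 without Control GFP+ 1 or 2 or RasV12 GFP+ 1, 2 or 3, and 4 with background subtracted.

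**Figure D3:**
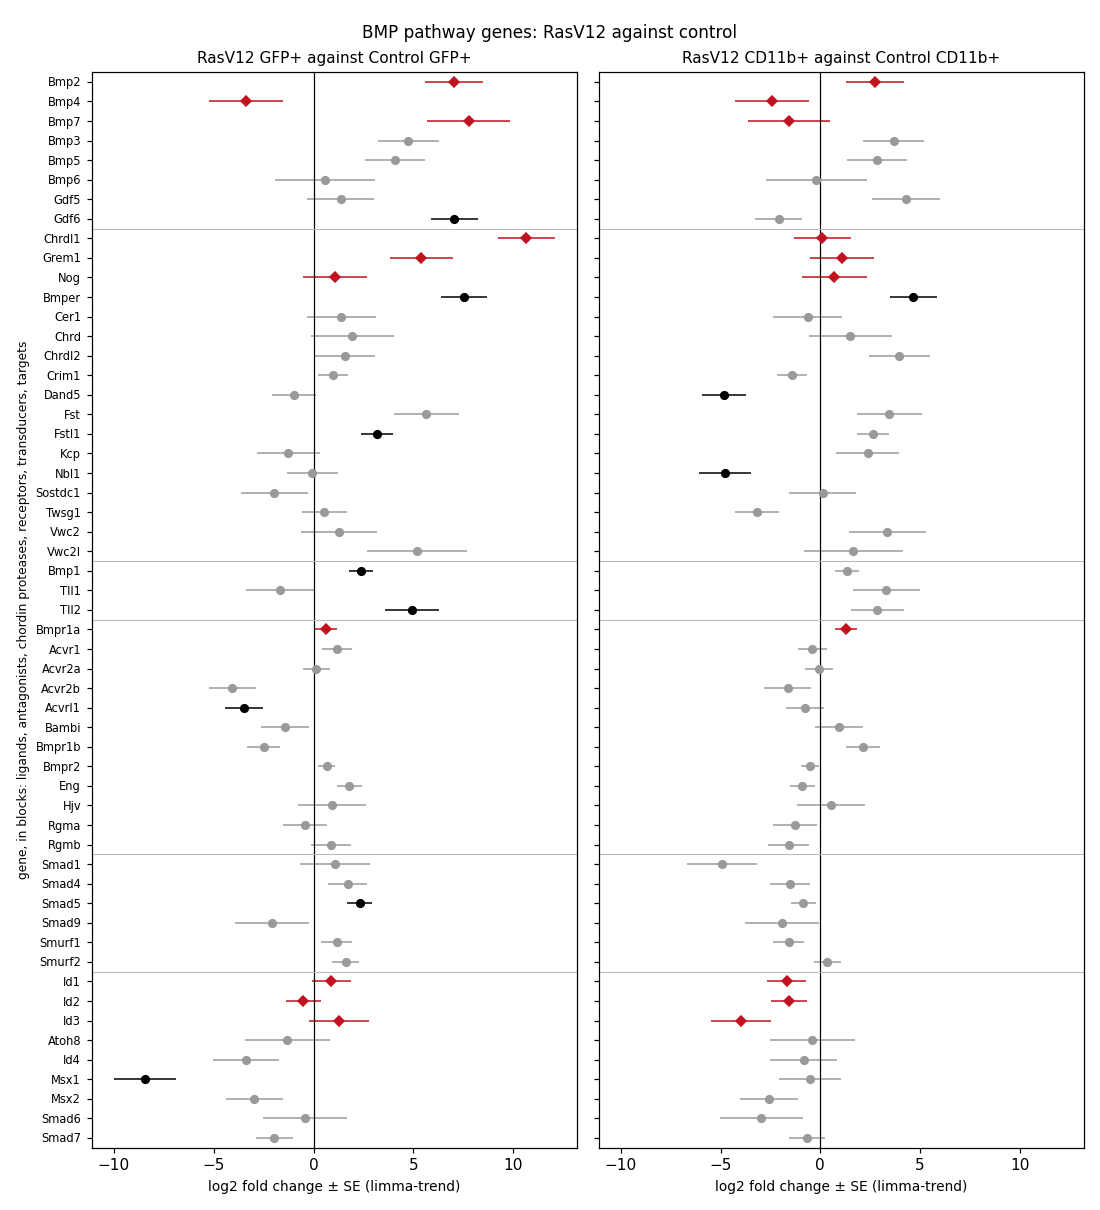
Log2 fold change ± SE of the 10 genes (red diamonds, not tested on the left) and of the other pathway genes (black where adjusted p is under 0.05, grey otherwise) for RasV12 against Control in GFP+ cells (left) and in CD11b+ cells (right), on a shared axis and in blocks by role. Chrdl1, Bmp7, Bmper, Bmp2 and Gdf6 lie to the far right on the left side and Msx1 to the far left, and on the right side Bmper, Dand5 and Nbl1 are black.

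Gdf6, a BMP-family ligand of the growth and differentiation factor branch (chromosome 4, 9844372 to 9862345), stood at 89.4, 327 and 78.7 in RasV12 GFP+ and had no read in Control GFP+ (adjusted p = 0.00288). With the control group set to a floor of 3 reads in all, it was at least 191-fold higher. Gdf6 passed the filter on low values only through the RasV12 GFP+ libraries, where it was high, so no support is drawn from its calls. Bmper, a secreted chordin-family modulator of BMP signalling (chromosome 9, 23223076 to 23485200), stood at 200.5, 171 and 292 in RasV12 and at 0.6, 0.0 and 0.0 in Control GFP+. It was 903-fold higher, with a 95% counting interval of 162 to 35680 from 1 control read (adjusted p = 0.00195). Both genes were read in every tumor library and nearly or wholly absent from every control library. Both kept the call in all 25 alternatives.

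Msx1, a homeobox gene induced by BMPs at the dorsal midline (chromosome 5, 37820485 to 37824583), stood at 270.2, 897 and 422 in Control and at 1.4, 0.0 and 0.0 in RasV12 GFP+. It was 1144-fold lower, with a counting interval of 391 to 5551 from 3 tumor reads (adjusted p = 0.00544), and kept the call in all 25 alternatives. Of the 7 targets listed, 6 passed the filter on low values, and the other 5 of these, Id4, Smad6, Smad7, Atoh8 and Msx2, did not pass the test. Id4, the fourth Id gene, stood at 6618, 3202 and 6535.3 in Control and at 335, 625 and 574 in RasV12 GFP+ (-3.39 ± 1.67, adjusted p = 0.299). Smad7, an inhibitory Smad, stood at 393, 312 and 155 in Control and at 148, 41.3 and 51.1 in RasV12 GFP+ (-1.96 ± 0.91, adjusted p = 0.263). For both genes every tumor library was below every control library, the opposite order to Id1 and Id3. Both were singled out after their values were seen. By summed reads Msx2, Smad6 and Atoh8 were also lower in RasV12 GFP+, by 15.45-fold, 5.06-fold and 3.93-fold. The median log2 fold change of the 6 tested targets was -2.46, against 0.56 for all genes.

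Fstl1, which encodes a secreted follistatin-like glycoprotein (chromosome 16, 37776873 to 37836514), averaged 443 ± 244 in Control and rose to 3901 ± 1829 in RasV12 GFP+ (3.19 ± 0.81, adjusted p = 0.0303). It did not pass without Control GFP+ 1 or 3 or RasV12 GFP+ 2 or 3 (adjusted p = 0.0532 to 0.125) or with background subtracted (0.124), 5 of 25 alternatives. Bmp1, the protease that cleaves chordin and procollagens (chromosome 14, 70474558 to 70520234), averaged 621 ± 321 in Control and rose to 2876 ± 495 (2.38 ± 0.61, adjusted p = 0.0308). It did not pass without Control GFP+ 2 or any of the RasV12 GFP+ libraries (adjusted p = 0.0811 to 0.123), nor with quantile normalization (0.0629), edgeR (0.0591) or background subtracted (0.669), 7 of 25 alternatives. Tll2, a tolloid-like protease of the same family, rose from 12.1 ± 20.3 to 130 ± 53.2 (4.94 ± 1.34, adjusted p = 0.0421). Smad5, which carries the signal from type I receptors to the nucleus, rose from 399 ± 87.1 to 1974 ± 253 (2.32 ± 0.62, adjusted p = 0.0402). Predicted genes overlap Smad5 and Acvrl1, and their reads cannot be told apart.

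Acvrl1, the type I receptor gene ALK1 known from endothelial cells (chromosome 15, 101128522 to 101145336), stood at 237, 180.4 and 332 in Control and 19.9, 33.8 and 13.2 in RasV12 GFP+ (-3.48 ± 0.93, adjusted p = 0.0402). The endothelial markers given above fell between the same groups, and their part in this result was not tested. Tll2, Smad5 and Acvrl1 lost the call in 16, 13 and 13 of 25 alternatives. Each lost it without any of several libraries, namely Control GFP+ 1 or 2, RasV12 GFP+ 1, 2 or 3 and Control CD11b+ 1 or 3, and Smad5 and Acvrl1 also without Control GFP+ 3, with adjusted p of 0.053 to 0.137 there.

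**Figure D4:**
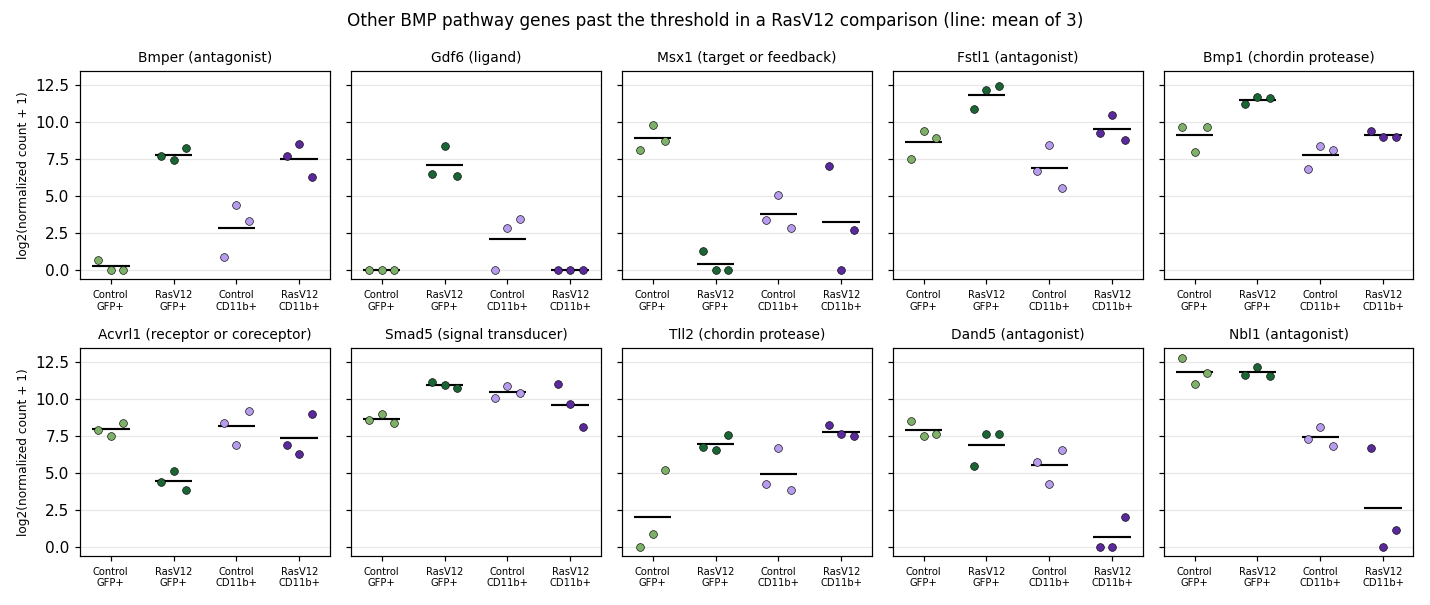
Log2(normalized count + 1) in each of the 12 libraries for the other BMP pathway genes that passed the test between RasV12 and Control in GFP+ or CD11b+ cells, with 1 point per library and a line at the mean of 3. Gdf6 and Bmper are at or near 0 in Control GFP+ and Msx1 in RasV12 GFP+, and Dand5 and Nbl1 are lowest in RasV12 CD11b+.

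In CD11b+ cells 3 of the 45 other pathway genes passed, 1 higher and 2 lower, which is 6.67% against 5.36% of all genes. The median log2 fold change was -0.40 over the list and 0.74 over all genes. Bmper stood at 209, 366 and 75.7 in RasV12 and 0.8, 19.5 and 8.7 in Control CD11b+ (4.67 ± 1.16, adjusted p = 0.0361). In all 6 libraries Bmper was below the receptor genes per kb, at 0.262 to 0.826 times in RasV12 CD11b+, and with background subtracted its log2 fold change was 0.00 (adjusted p = 1).

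Dand5, an antagonist of the DAN family (chromosome 8, 84815405 to 84822823), stood at 51.0, 18 and 91.2 in Control and at 0.0, 0.0 and 3.0 in RasV12 CD11b+ (-4.83 ± 1.11, adjusted p = 0.0272). Nbl1, the founding gene of that family (chromosome 4, 139082284 to 139092993), stood at 157, 268 and 111 in Control and at 102.5, 0.0 and 1.2 in RasV12 CD11b+ (-4.78 ± 1.30, adjusted p = 0.0492). Both were lower in all tumor libraries than in all control libraries. The low-depth libraries weigh on these values, since 1 read was worth 4.46 and 5.54 normalized counts in RasV12 CD11b+ 1 and 2. With background subtracted Dand5 lost the call (-3.96, adjusted p = 0.133) and Nbl1 kept it.

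None of the 3 calls held in every fit. The count was 0 without Control CD11b+ 1 or 3, 1 without RasV12 CD11b+ 1 or any of the 3 RasV12 GFP+ libraries, and 5 without Control CD11b+ 2. Without RasV12 CD11b+ 2, a low-depth library, all 3 calls were lost (adjusted p = 0.0642 for Dand5, 0.102 for Bmper and 0.128 for Nbl1). The count was 0 with edgeR, where 434 of all genes were called. Over the alternatives adjusted p ranged from 0.00529 to 0.228 for Dand5, from 0.00133 to 1 for Bmper and from 2.17e-05 to 0.182 for Nbl1.

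Between the populations, 17 of the 45 other pathway genes differed in tumors, 6 higher and 11 lower in CD11b+ than in GFP+ cells, against 29.8% and 10.2% of all genes (40.1% in either direction). Without RasV12 GFP+ 3 the count was 11, and without the low-depth libraries RasV12 CD11b+ 1 and 2 it was 10. In the control 8 of the 45 differed, 2 higher and 6 lower, against 19.3% and 6.91% of all genes (26.2% in either direction). The count was 4 without Control GFP+ 1 or Control CD11b+ 3 and 5 without Control CD11b+ 2. The 2 comparisons share no library with each other but share theirs with the RasV12 comparisons. The RasV12 effect itself differed between CD11b+ and GFP+ cells for 2 of the 45 genes, Gdf6 and Bmpr1b, against 4.4% of all genes.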

How the data were processed

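Per the labels' protocols, Sepazol was used to extract RNA, a SMARTer Universal kit to synthesize cDNA and Nextera XT, a kit that does not mark strand, to make the libraries. Per the submitters' processing notes, DESeq2 1.20.0, HISAT2 2.1.0 and Subread 1.6.2 with featureCounts were among the tools, and the build was GRCm38.p6; no roles are given. The authors deposited normalized counts, a signal per gene divided by a factor per library, and FPKM values, both without replicate pooling.

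Dividing each library's deposited normalized counts by the smallest step between them gave whole reads for 100% of values (tolerance 0.05). In RasV12 GFP+ 1 and 3 the step was small against the rounding, so the step rests on a narrowing search that a simpler check of whole multiples did not bear out, and read numbers, count models and counting intervals that use these 2 libraries are less certain. Genes with at least 10 normalized counts in at least 3 libraries (29835) entered limma-trend in R 4.3.3 with limma 3.58.1. The response was log2(normalized count + 1), the model gave each group its own mean over 12 libraries, with Benjamini-Hochberg adjustment at 0.05. The filter passed all 10 members. Gene IDs matched GENCODE annotation for 98.3% of genes, which gave coordinates and exon lengths. The pipeline was tested on simulated data.

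The members and lists were chosen with earlier results of these data known. Named were the 10 members, up to 10 other pathway genes past the threshold per RasV12 comparison, the 5 genes most like Chrdl1, and Itgam. Hjv was found in the table under an older symbol. Alternatives were the FPKM table with pseudocount 0.1, rescaling by the upper quartile or by quantiles, changed pseudocounts, changed filters, the 6 compared libraries alone, a block for replicate number, count models of the recovered reads by edgeR 4.0.16 (TMM) and by DESeq2 1.42.0 (1122 and 4907 genes called in GFP+, 434 and 2403 in CD11b+ cells), and leaving out each library. Background subtraction and leaving out RasV12 CD11b+ 1 and 2 were chosen after seeing the data. Intervals and floors cover counting error only. Protein sequences were not used here.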

Additional observations from a re-analysis of the deposited data

Results flagged for a closer look

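The RasV12 effect on Gdf6 differed between the sorted populations, by a test of the difference of effects in the same limma-trend fit. Gdf6 passed the filter on low values only through the RasV12 GFP+ libraries, where it was high, so no support is drawn from this test. The difference, CD11b+ minus GFP+, was -9.15 ± 1.65 on the log2 scale (adjusted p = 0.00822, and 0.000779 to 0.0322 over 24 alternatives), with 164.9 ± 140.2 normalized counts in RasV12 GFP+ and none in Control GFP+ or RasV12 CD11b+. That difference ranged from -16.9 to -4.40 over the alternatives. Its size depends on the pseudocount, since Control GFP+ and RasV12 CD11b+ had no read. In CD11b+ cells Gdf6 had 27 reads in all in Control and none in RasV12. With the tumor group set to a floor of 3 reads, it was at least 4.39-fold lower there. This effect in CD11b+ cells did not pass on its own.

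The effect on Bmpr1b, a type I receptor gene, differed by 4.65 ± 1.19 (adjusted p = 0.0435, and 0.000139 to 0.866 over 24 alternatives). In GFP+ cells Bmpr1b averaged 622 ± 453 normalized counts in Control and 101.1 ± 51.2 in RasV12, and in CD11b+ cells 47.7 ± 16.2 in Control and 211 ± 65.7 in RasV12 (SD, n = 3). Neither effect passed on its own (adjusted p = 0.102 and 0.134). With background subtracted the difference was 0.73, and the call was lost in 16 of the 24 alternatives. The share of all genes called in this test was 4.4%.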

How the results depend on the processing

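With 3 libraries a group, and only 3642570 and 2951629 reads in RasV12 CD11b+ 1 and 2, the CD11b+ comparison was the least stable. Of all genes called there 55.4% were higher, against 29.8% with upper-quartile scaling, 30.5% with quantile normalization, 21.0% with background subtracted and 6.91% with edgeR. In GFP+ cells 60.9% were higher, against 49.3% with quantile normalization. Between populations 74.4% were higher in tumor CD11b+ cells, against 61.5% with upper-quartile scaling, 44.7% with quantile normalization, 32.7% with edgeR and 31.6% with background subtracted. In the control 73.7% were higher, against 44.3%, 63.1% and 47.2% with quantile normalization, edgeR and background subtracted. The median log2 difference of all genes moved from 0.56 to -0.12 (quantile normalization) in GFP+ and from 0.74 to 0.21 (upper quartile), 0.13 (quantile) and -0.55 (background subtracted) in CD11b+ cells. The cause of these and the following shifts was not tested.

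In GFP+ cells 2027 genes were called, against 1043 with quantile normalization, 3583 with only the 6 libraries compared, 1122 with edgeR, 4907 with DESeq2, 1134 with background subtracted and 1005 to 2482 leaving out 1 library. Other pathway genes called numbered 8, against 5 from FPKM, 4 with quantile normalization, 13 with the 6 libraries, 4 with edgeR, 14 with DESeq2, 4 with background subtracted and 3 to 10 leaving out 1 library. In CD11b+ cells 1599 were called, against 2608 from FPKM, 2421 with quantile normalization, 4736 with pseudocount 10, 27 with the 6 libraries, 434 with edgeR, 2403 with DESeq2, 2968 with background subtracted, 532 without RasV12 CD11b+ 1 and 2, and 307 to 5390 leaving out 1 library. Other pathway genes there numbered 3, against 1 with pseudocount 0.5, 1 without a filter, 0 with the 6 libraries, 0 with edgeR, 5 with background subtracted and 0 to 5 leaving out 1 library. Of the 10 members none was called there, against 1 with quantile normalization, 1 without RasV12 CD11b+ 1 and 2, and 0 to 2 leaving out 1 library.

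Between populations in tumors 11953 were called, against 4692 with edgeR, 3671 without RasV12 CD11b+ 1 and 2, and 8093 to 12473 leaving out 1 library, and other pathway genes numbered 17, against 11, 10 and 11 to 17. In controls 7826 were called, against 4104 with quantile normalization, 4613 with edgeR, 3655 with background subtracted and 5198 to 8864 leaving out 1 library, and other pathway genes numbered 8, against 17 with DESeq2 and 4 to 10. The RasV12 effect differed between populations for 2 other pathway genes, against 4 with quantile normalization, 4 with pseudocount 10, 1 without a filter, 1 with the replicate block, 7 with DESeq2, 8 with background subtracted, 5 without RasV12 CD11b+ 1 and 2, and 1 to 5 leaving out 1 library.

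The sign of uncalled members turned in CD11b+ cells. Chrdl1, at 0.10, came to -0.18 from FPKM, -0.49 with upper-quartile scaling, -1.73 with quantile normalization, -0.0098 with pseudocount 10, -1.41 with edgeR, -0.71 with DESeq2, -2.85 with background subtracted, -1.83 without RasV12 CD11b+ 1 and 2, and -1.12 to 1.69 leaving out 1 library. Bmp4 came to 0.31 with edgeR. Without RasV12 CD11b+ 1 and 2, Nog came to -0.40 and Grem1 to -0.70, and leaving out 1 library they ranged from -0.40 to 1.25 and from -0.10 to 2.20.

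No pairing by replicate number was seen in the values, where deviations of same-numbered libraries from their group means correlated by -0.0289 to 0.0897. Deviations from means of 3 libraries cannot show whether same-numbered libraries came from the same animal. With the replicate block 1855, 1212, 11785 and 7529 of all genes were called in GFP+, in CD11b+, between populations in tumors and in controls, and 6, 2, 17 and 8 of the other pathway genes.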
